A study of Homo sapiens with 18 samples.

Results

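The 52 genes described here encode nuclear subunits of the respiratory chain and its mobile electron carrier: 28 subunits of complex I, 4 of complex II, 8 of complex III, cytochrome c and 11 of complex IV. They were chosen by name from a fixed list of oxidative phosphorylation genes, and all 52 were found among the 26249 genes of the files. The list holds no gene of complex V (ATP synthase), so 18 genes of that complex were taken from a second list for the comparison across complexes I to V. Further lists held 10 other subunits of complexes I and III, 51 assembly factors, 12 transcriptional regulators of mitochondrial genes and 7 tissue isoforms of complex IV subunits. The mitochondrially encoded subunits were not analysed here.

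The measurements were FPKM from QuantSeq libraries, which read the 3′ ends of messenger RNA, made from total RNA of the human multiple myeloma lines XG1 and AMO1. Each line was kept for 24 h in DMSO, the solvent control, or in 100 nM or 1000 nM of YKL-5-124, an inhibitor of the cyclin-dependent kinase CDK7, which acts in the transcription factor TFIIH and in cell cycle control. The 6 groups held 3 replicates each, 18 libraries in all, and neither line is described as carrying an engineered allele in the labels used here. The replicates are numbered, but nothing says that they came from separate cultures, and a p-value here reflects how much these samples vary, which may be technical.

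Libraries of each line were checked against markers of the labelled cell type. In AMO1 in DMSO, all 10 plasma cell markers averaged at least 1 FPKM, and their sum lay between 8363 and 9397 FPKM per library. In the libraries labelled XG1, 5 of the 10 averaged under 1 FPKM in DMSO, IRF4, PRDM1 and CD38 among them, and the sum lay between 91.6 and 145 FPKM. These libraries instead held all 11 erythroid markers, summing to between 4821 and 5233 FPKM, against 106 to 121 FPKM in AMO1. The markers go against the label, so this line is called "the libraries labelled XG1" or, for short, XG1. Total FPKM of all genes was lower at higher dose, between 431965 and 686266 FPKM per library in AMO1 at 1000 nM against 1442940 to 1553910 FPKM in DMSO, while the spike-ins summed to between 166717 and 187657 FPKM in all 18 libraries. AMO1 at 1000 nM replicate 2 held 431965 FPKM in genes and stood apart from its group, whose other libraries held 686266 and 683618 FPKM. The sources used here do not give the read depth.

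Because most genes moved together, changes are given on a deposited and a relative scale. On the deposited scale a log2 change compares log2(FPKM + 1) as deposited, which appears to be set to the spike-ins. On the relative scale each library was first divided by its median ratio over genes, so a change is set against the median gene. In AMO1 at 1000 nM the median change of all genes tested was -0.77 on the deposited scale and 0.02 on the relative scale. In bulk libraries, fewer cells and less RNA per cell cannot be told apart. Log2 changes of genes at a few FPKM are understated by the added 1 FPKM. The libraries read 3′ ends while FPKM divide by gene length, so levels are compared between samples for 1 gene and not between genes.

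Oxidative phosphorylation passes electrons from NADH (complex I) and succinate (complex II) through ubiquinone to complex III, then by cytochrome c to complex IV, which reduces oxygen. Complexes I, III and IV pump protons, and complex V uses the resulting gradient to make ATP. Core subunits include those that carry the redox centres, and accessory subunits stabilise the complexes. Most subunit genes are nuclear, many are transcribed from promoters bound by NRF1 and by the ETS factor GABP (GABPA with GABPB1), and plasma cells draw on respiration to support antibody secretion.

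The promoters of 4 genes that bracket the range of change in AMO1 are shown here, chosen with their changes known, because many genes of this pathway are described as NRF1 and GABP targets. They are the 250 bases before the annotated start from RefSeq (GRCh38.p14), written 5′ to 3′ on the gene's strand. Capitals mark matches, on either strand, to 2 spellings of the NRF1 motif or to CCAAT. The long spelling is the palindromic consensus with any base in 1 central place, and the short one is GCGCATG. CYCS (chr7:25125261-25125510, minus strand) and NDUFA9 (chr12:4648864-4649113, plus strand) were among the genes that fell furthest, and NDUFB1 (chr14:92121707-92121956, minus strand) and SDHA (chr5:218070-218319, plus strand) were among those with the smallest changes.
CYCS: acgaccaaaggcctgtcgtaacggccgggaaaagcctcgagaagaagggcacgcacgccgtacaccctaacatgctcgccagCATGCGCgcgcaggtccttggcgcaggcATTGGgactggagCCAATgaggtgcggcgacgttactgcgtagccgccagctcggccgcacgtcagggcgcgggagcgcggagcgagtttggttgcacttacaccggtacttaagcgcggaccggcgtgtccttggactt
NDUFA9: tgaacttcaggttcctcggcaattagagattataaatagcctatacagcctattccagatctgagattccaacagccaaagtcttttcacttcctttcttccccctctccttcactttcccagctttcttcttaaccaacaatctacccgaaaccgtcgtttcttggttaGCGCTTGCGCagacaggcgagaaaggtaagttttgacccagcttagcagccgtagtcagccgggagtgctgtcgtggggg
NDUFB1: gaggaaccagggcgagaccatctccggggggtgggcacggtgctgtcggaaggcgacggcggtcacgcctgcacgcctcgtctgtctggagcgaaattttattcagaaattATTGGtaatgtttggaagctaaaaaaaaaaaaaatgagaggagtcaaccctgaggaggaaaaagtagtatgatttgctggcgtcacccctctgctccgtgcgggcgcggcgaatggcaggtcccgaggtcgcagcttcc
SDHA: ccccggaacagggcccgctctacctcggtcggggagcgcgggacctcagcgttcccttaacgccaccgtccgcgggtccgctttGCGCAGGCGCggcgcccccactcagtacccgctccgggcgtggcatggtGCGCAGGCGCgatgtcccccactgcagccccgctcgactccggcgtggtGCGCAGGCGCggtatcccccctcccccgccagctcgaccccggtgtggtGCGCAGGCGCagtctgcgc
SDHA held 4 long NRF1 matches and NDUFA9 held 1, CYCS held 1 short NRF1 match and 2 of CCAAT, and NDUFB1 held 1 of CCAAT. These 4 were picked for display, and other genes at the ends of the range, such as NDUFB6 and COX7A2, held no match to any motif searched.

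Of the 52 genes, 44 had a promoter in the RefSeq table. The long NRF1 spelling was found in 9 of the 44 (20.5%), against 5.53% of all 27305 promoters, and the short one in 7 (15.9%), against 3.96%. The ETS-type motif CCGGAAG was found in 13 (29.5%), against 8.82%, and CCAAT in 14 (31.8%), against 33.0%. The YY1 consensus in its long form was in 0 of the 44 and 0.359% of all promoters, and its shorter form AAGATGG was in 2 (4.55%), against 3.77%. The comparison promoters were all of those in that table, not matched for expression or base content, so these shares cannot be read as particular to the pathway. The spellings of the NRF1 motif gave different pictures. In AMO1 at 1000 nM the median deposited log2 change was -0.92 for the 9 genes with the long spelling and -1.0 for the 35 without, but -1.29 for the 7 with the short spelling and -0.96 for the 37 without. In XG1 at 1000 nM, the medians were -0.13 and -0.31 for the long spelling and -0.54 and -0.24 for the short one. The short spellings of NRF1 and YY1 were added after the changes had been seen, no test was run, and a match is a description, not a binding site. For the ETS-type motif the AMO1 medians were -1.0 with it and -0.96 without.

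In AMO1 at 1000 nM, 47 of the 52 genes fell on the deposited scale and 0 rose, by limma's moderated test with Benjamini-Hochberg adjusted p under 0.05 over all 10503 genes tested. The background for a fall was 65.7% of all genes tested and for a rise 2.51%, and the 52 genes stood at 90.4%. At an unadjusted p under 0.05 the counts were 49 lower and 0 higher, against 68.3% and 2.79% of all genes tested. The median log2 change of the 52 genes was -0.97, with a range from -1.90 for CYCS to -0.19 for NDUFB1, against a median of -0.77 over all genes tested. All 3 treated libraries lay under all 3 DMSO libraries for 49 of the 52 genes, where 68.6% of all genes tested did so, and NDUFB1, SDHD and COX7A2 overlapped. Set against the median gene, the split was 10 genes lower and 9 higher, with backgrounds of 24.2% and 24%, and the median of the 52 was 0.00 with a range from -0.94 to 0.79. The genes as a group thus moved with the median gene, while single genes moved to either side of it.

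**Figure D1:**
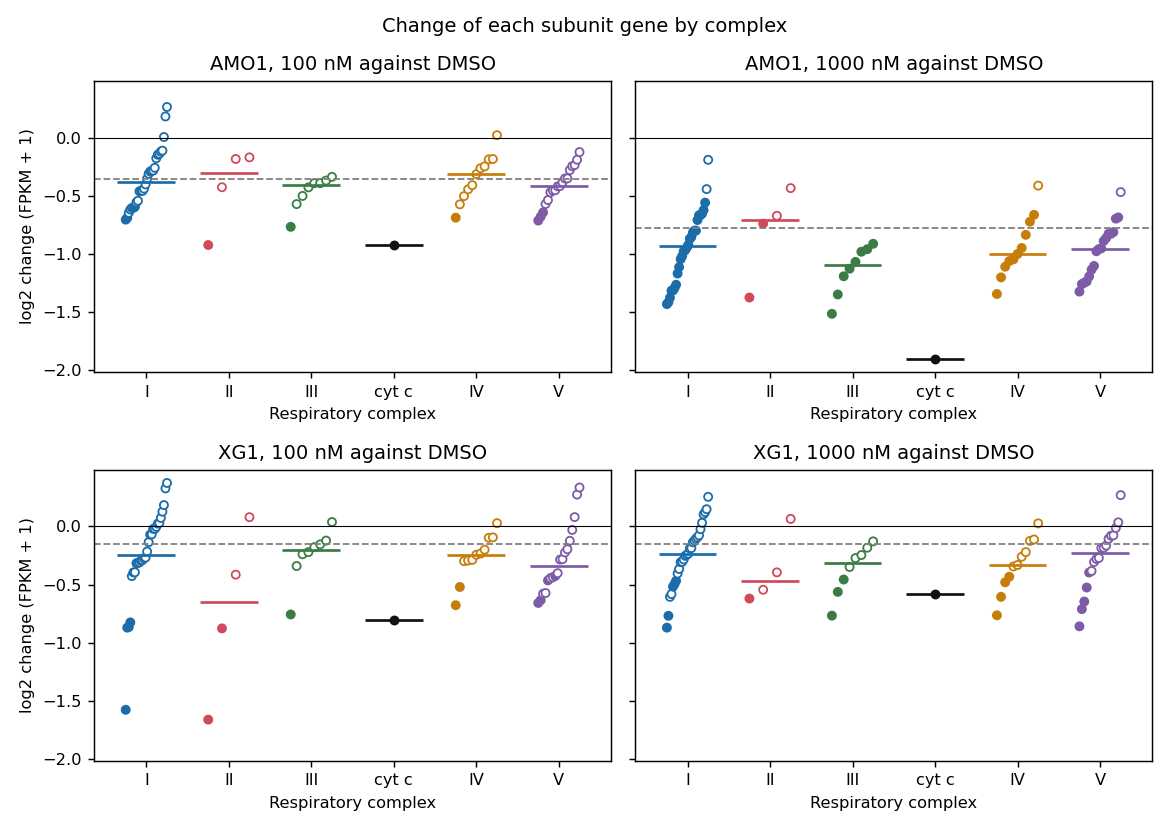
Log2 change (FPKM + 1, deposited scale) of each subunit gene against DMSO of the same line, by respiratory complex (I to IV, cytochrome c, and V from the second list). Each point is a gene, filled where the adjusted p is under 0.05, the bars are medians of a complex and the dashed line is the median of all genes tested, -0.77 in AMO1 at 1000 nM and -0.15 in XG1 at either dose. In AMO1 at 1000 nM every point lies under 0 and cytochrome c lies lowest, at -1.90.

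The medians of complexes I to V lay within a narrower range than the genes of complex I did. In AMO1 at 1000 nM the median deposited log2 change was -0.93 for complex I (26 of 28 genes fell, where 65.7% of all genes tested did), -0.71 for complex II (2 of 4), -1.10 for complex III (8 of 8), -1.0 for complex IV (10 of 11) and -0.96 for complex V (17 of 18). Set against the median gene these medians were 0.03, 0.14, -0.12, -0.02 and 0.03, so complexes I, II and V changed sign with the scale. Complex III held 3 genes that fell and 0 that rose relative to the median gene, and complex I held 4 that fell and 5 that rose. The backgrounds on that scale were 24.2% and 24%. The 3 libraries of the group differed more than the complexes did: the mean deposited log2 level of complex I minus the DMSO mean was -0.73, -1.42 and -0.66 in replicates 1, 2 and 3. In relative terms the same values were 0.03, -0.03 and 0.10, against -0.01, -0.08 and 0.10 in DMSO, so the groups overlapped. Complex III lay at -0.16, -0.23 and -0.10 on that scale, each under all 3 DMSO values of -0.03, -0.08 and 0.11. The difference between complexes was not tested.

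**Figure D2:**
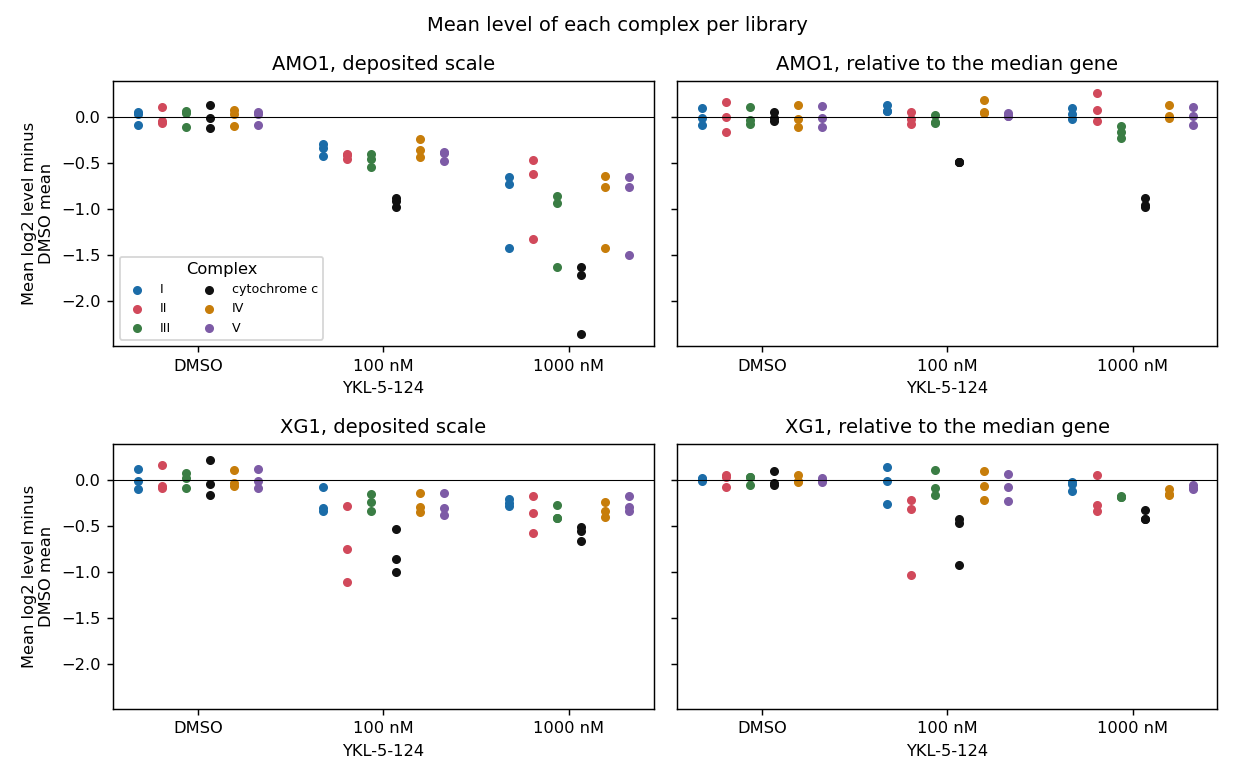
Mean log2 level of each complex in every library minus the mean of the line's DMSO libraries, on the deposited scale (left) and relative to the median gene (right), for AMO1 (top) and XG1 (bottom) in DMSO, 100 nM and 1000 nM YKL-5-124. Each point is 1 library and colours are complexes. On the deposited scale AMO1 at 1000 nM replicate 2 lies lowest, at -1.42 for complex I, while on the relative scale complexes I and V lie near 0 and cytochrome c lies between -0.98 and -0.88.

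Cytochrome c (CYCS), which carries electrons from complex III to complex IV and triggers the apoptosome when it leaves the mitochondrion, had the largest change of the 52 genes in AMO1 at 1000 nM. In AMO1 its level was 111, 132 and 120.0 FPKM in DMSO, 60.9, 63.7 and 64.9 FPKM at 100 nM, and 36.0, 22.7 and 38.3 FPKM at 1000 nM, in the order of replicates 1 to 3. The 3 groups did not overlap, and each dose lay under the one before it. The deposited log2 change was -0.92 (SE 0.22, adjusted p = 0.0062 by limma) at 100 nM and -1.90 (SE 0.22, adjusted p = 6.4e-06) at 1000 nM, and -0.98 (adjusted p = 0.012) between the doses. On the relative scale CYCS fell as well, by 0.49 (SE 0.065) and 0.94 (SE 0.065), and every library at 1000 nM lay between -0.98 and -0.88 relative to DMSO. It was the 1 gene of the 52 that fell on the relative scale between 100 nM and 1000 nM (-0.45). GENCODE 29 names 40 pseudogenes for CYCS, more than for any other of the 52 genes, and the sources used here do not say how shared reads were counted.

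**Figure D3:**
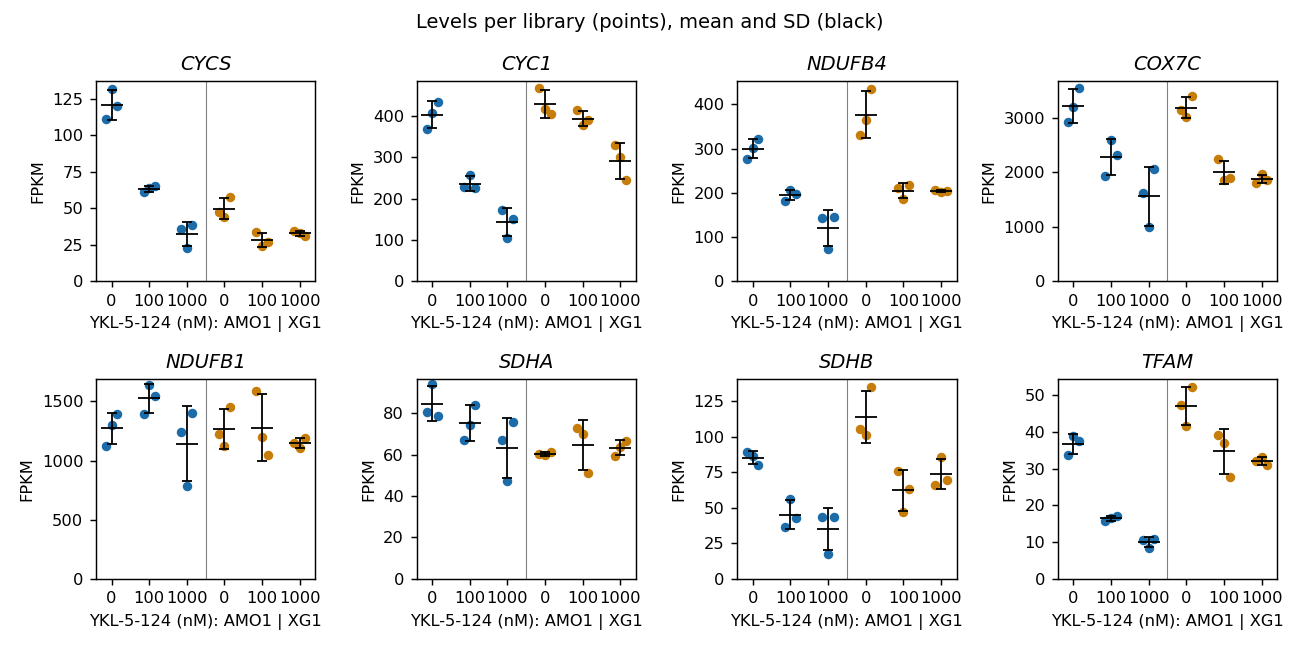
FPKM of 8 genes in every library (points, AMO1 blue and XG1 orange) with the mean and SD of each group of 3 (black), by dose of YKL-5-124 in nM, linear axes from 0. CYCS, CYC1 and TFAM step down with dose in AMO1, while NDUFB1 and SDHA in DMSO and at 1000 nM overlap or nearly meet. In XG1, NDUFB4 and COX7C are as low at 100 nM as at 1000 nM.

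Complex I, the NADH dehydrogenase, is the entry point for most electrons and its NDUFA and NDUFB genes encode accessory subunits. Of its genes NDUFB6 fell furthest in AMO1 at 1000 nM: its level was 106, 125 and 112 FPKM in DMSO and 57.2, 25.8 and 48.9 FPKM at 1000 nM, a deposited log2 change of -1.43 (SE 0.26, adjusted p = 0.0003 by limma). NDUFA9, a subunit that binds a nucleotide cofactor, followed with 175, 185 and 195 FPKM in DMSO, 111, 123 and 109 FPKM at 100 nM and 79.1, 53.1 and 76.8 FPKM at 1000 nM. Its groups did not overlap at either step, and its change at 1000 nM was -1.42 (SE 0.20, adjusted p = 4.4e-05). Relative to the median gene, NDUFA9 (-0.44), NDUFB4 (-0.40), NDUFB6 (-0.47) and NDUFS5 (-0.33) also fell.

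The accessory subunit gene NDUFB1 lay at the other end of complex I. In AMO1 its level was 1126, 1296 and 1391 FPKM in DMSO, 1394, 1638 and 1543 FPKM at 100 nM, and 1240.3, 787 and 1402 FPKM at 1000 nM. At 100 nM all 3 libraries lay above DMSO, though the deposited log2 change was 0.26 (SE 0.22, adjusted p = 0.37 by limma), and at 1000 nM the groups overlapped with a change of -0.19 (adjusted p = 0.45). Without AMO1 at 1000 nM replicate 2 that value was 0.06. Relative to the median gene NDUFB1 rose by 0.70 (SE 0.096) at 100 nM and by 0.79 (SE 0.096, adjusted p = 0.00012) at 1000 nM. NDUFA3, which was 483, 507 and 456 FPKM in DMSO, 525, 580.1 and 536 FPKM at 100 nM and 395, 264 and 425 FPKM at 1000 nM, likewise rose on the relative scale, by 0.62 and 0.54, and had values of 0.18 and -0.44 on the deposited scale, where neither passed the test. NDUFA10, NDUFA13 and NDUFV1 also rose relative to the median gene at 1000 nM, by 0.31, 0.42 and 0.31, while they fell on the deposited scale.

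Core and accessory subunits of complex I had close medians of -0.91 over 4 core genes and -0.93 over 24 accessory genes on the deposited scale in AMO1 at 1000 nM. NDUFS1, the iron-sulfur subunit of the peripheral arm, was 12.4, 15 and 11.4 FPKM in DMSO and 8.55, 4.54 and 7.48 FPKM at 1000 nM, a change of -0.85 (SE 0.24, adjusted p = 0.0055 by limma). NDUFV1, the flavoprotein that takes the electrons from NADH, was 123, 139.9 and 127 FPKM in DMSO and 92.9, 67.6 and 85.6 FPKM at 1000 nM (-0.67, adjusted p = 0.0083). For both genes the treated libraries lay under the DMSO libraries. Relative to the median gene the changes were 0.03 for NDUFS1, which did not pass the test, and 0.31 for NDUFV1, which did.

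In complex II, succinate dehydrogenase, which is also an enzyme of the citric acid cycle, the 4 genes differed. SDHB, the iron-sulfur subunit, was 88.8, 86.2 and 80.3 FPKM in AMO1 in DMSO, 36.5, 56.3 and 42.5 FPKM at 100 nM and 43.4, 17.7 and 43.1 FPKM at 1000 nM. Both doses lay under DMSO and overlapped each other, with deposited log2 changes of -0.92 (SE 0.30, adjusted p = 0.03 by limma) and -1.37 (SE 0.30, adjusted p = 0.0011). SDHA, the flavoprotein with the succinate site, was 80.8, 94.3 and 78.7 FPKM in DMSO, 67.0, 74.5 and 84.2 FPKM at 100 nM and 67.3, 47.2 and 75.6 FPKM at 1000 nM. Its change of -0.43 at 1000 nM did not pass the test (adjusted p = 0.086), and relative to the median gene it rose by 0.54 (SE 0.080). The membrane anchor SDHC fell by 0.74 on the deposited scale. The other anchor, SDHD, was listed at 1.49 to 6.35 FPKM in the 9 AMO1 libraries, near the filter of 1 FPKM, with a change of -0.67 (adjusted p = 0.063).

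Complex III (cytochrome bc1) held the gene with the next largest deposited change after CYCS. CYC1, its cytochrome c1, was 368, 407 and 434 FPKM in AMO1 in DMSO, 228, 256 and 224 FPKM at 100 nM and 173, 105 and 151 FPKM at 1000 nM. The 3 groups did not overlap, and the deposited log2 changes were -0.77 (SE 0.21, adjusted p = 0.014 by limma) and -1.52 (SE 0.21, adjusted p = 3.5e-05). CYC1 also fell on the relative scale, by 0.33 and 0.54. UQCRB, a subunit at the ubiquinone site, fell by 1.35 on the deposited scale at 1000 nM (153, 167 and 159 FPKM in DMSO, 73.8, 44.4 and 73.3 FPKM treated) and by 0.38 on the relative one. UQCRC1 (-0.96), counted here as an accessory subunit, and the Rieske iron-sulfur protein UQCRFS1 (-0.91) fell on the deposited scale. Their relative values, which did not pass the test, were 0.01 and 0.06.

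Complex IV, cytochrome c oxidase, showed the same spread. COX7B, a small accessory subunit, was 1302, 1445 and 1415 FPKM in AMO1 in DMSO, 783, 932 and 872 FPKM at 100 nM and 598, 389 and 696 FPKM at 1000 nM. The groups did not overlap, with deposited log2 changes of -0.69 (adjusted p = 0.027 by limma) and -1.34 (SE 0.22, adjusted p = 0.00011) and relative ones of -0.25 and -0.36, all past the test. COX7A2, another small subunit, was 1139, 1169 and 1330.0 FPKM in DMSO, 1124, 1373 and 1202 FPKM at 100 nM and 1040.2, 619.7 and 1167 FPKM at 1000 nM. Its deposited change of -0.41 at 1000 nM did not pass the test (adjusted p = 0.12), and relative to the median gene it rose by 0.57 (SE 0.11). COX4I1, the regulatory subunit that binds ATP, fell on the deposited scale (-0.66, adjusted p = 0.013) and rose on the relative one (0.32). COX5B fell by 1.0 on the deposited scale, and its relative value was -0.02.

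**Figure D4:**
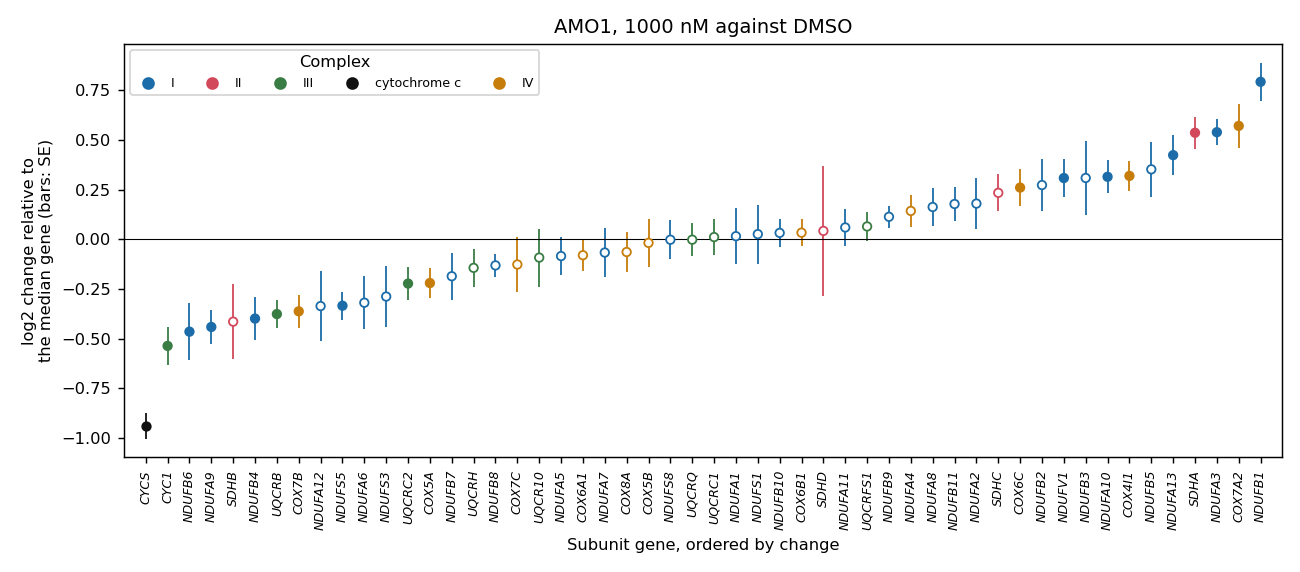
Log2 change of the 52 genes relative to the median gene in AMO1, 1000 nM against DMSO, in order of size (bars: SE of the fit, colours: complex, filled points: adjusted p under 0.05). CYCS lies lowest at -0.94 and CYC1 next at -0.54, NDUFB1 lies highest at 0.79, and members of complexes I and IV stand at both ends.

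At 100 nM in AMO1, 8 of the 52 genes fell on the deposited scale and 0 rose, a share of 15.4% against a background of 29.5% of all genes tested (2.73% for a rise). These were NDUFA6, NDUFA9, NDUFS5, NDUFS8, SDHB, CYC1, CYCS and COX7B. At an unadjusted p under 0.05 the counts were 17 lower and 0 higher, against 39.6% and 4.36% of all genes tested. The share depended on the fit: with only the DMSO and 100 nM libraries in it, 34 of the 52 were lower and 49.1% of all genes were called in either direction, and with no filter on low values 3 were lower and 7.41% were called. The treated libraries lay under all DMSO libraries for 37 genes (71.2%, background 51.2%) and above them for NDUFA3 and NDUFB1 (3.85%, background 5.9%). The median was -0.40 against -0.35 over all genes. Of the 52, 3 fell relative to the median gene (CYC1, CYCS and COX7B; background 17.1%) and 9 rose (NDUFA3, NDUFA4, NDUFA8, NDUFA10, NDUFB1, NDUFV1, SDHA, COX4I1 and COX7A2; background 14%). The count of 8 was lower in each fit without 1 library of the groups compared. It was 2, 1 and 1 without AMO1 in DMSO replicates 1, 2 and 3, and 1, 4 and 1 without AMO1 at 100 nM replicates 1, 2 and 3. The AMO1 libraries at 1000 nM stayed in each of these fits. The share of all genes called in these fits is not given here, so the drop cannot be read as particular to the 52 genes. CYCS passed the test in all 6 of these fits. The comparisons of the doses with DMSO share the DMSO libraries. From 100 nM to 1000 nM, 22 genes fell (42.3%) and 0 rose, against backgrounds of 23.4% and 0.209%, and for 36 the groups did not overlap (69.2%, background 48.1%). In relative terms 1 gene fell, CYCS (background 4.23%), and 0 rose (background 1.74%). The count of 22 ranged from 0 without AMO1 at 100 nM replicate 3 to 40 without AMO1 at 1000 nM replicate 3, and was 1 without AMO1 at 100 nM replicate 1 or 2. It was 2 with only the groups compared in the fit and 1 with no filter, where 13.8% and 1.98% of all genes were called in either direction. For the fits without 1 library this share is not given here.

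Genes outside the 52 moved alike in AMO1 at 1000 nM. The backgrounds there were 65.7% of all genes tested for a deposited fall and 2.51% for a rise. On the relative scale they were 24.2% and 24%. The 10 other subunits of complexes I and III all fell on the deposited scale (median -1.01), and 3 fell and 2 rose on the relative scale. Of 18 complex V genes, 17 fell, from -1.32 for C14orf2 (968, 580.1 and 1037 FPKM against 2015, 2127 and 2136 FPKM), and the inhibitor ATPIF1, which blocks ATP hydrolysis by the synthase, had the smallest change (-0.47, adjusted p = 0.088 by limma). Relative to the median gene, 4 of the 18 fell and 2 rose, ATPIF1 by 0.51. Of 50 assembly factors tested, 43 fell and 1 rose on the deposited scale, and 15 fell and 8 rose on the relative scale. The 1 that rose was SCO2, a copper carrier of complex IV named here after its values were seen, at 0.221, 2.12 and 0.111 FPKM in DMSO and 12.2, 5.17 and 13.2 FPKM at 1000 nM. All 7 tissue isoforms of complex IV subunits, such as COX4I2 and COX6A2, averaged under 1 FPKM in every group.

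Regulators of mitochondrial genes fell in AMO1 too. On the deposited scale 10 of 12 fell at 1000 nM (median -1.27) and 6 of 12 at 100 nM, against backgrounds of 65.7% and 29.5%. On the relative scale 6 fell (background 24.2%) and 1, the coactivator PPARGC1A, rose (background 24%) at 1000 nM. TFAM, which packages mitochondrial DNA and helps start its transcription, was 33.6, 38.8 and 37.5 FPKM in DMSO, 15.8, 16.7 and 17.1 FPKM at 100 nM and 10.5, 8.36 and 10.8 FPKM at 1000 nM. The groups did not overlap, with deposited log2 changes of -1.10 (adjusted p = 0.00071 by limma) and -1.79 (SE 0.18, adjusted p = 2.6e-06). NRF1 was 3.71, 5.05 and 4.30 FPKM in DMSO and 0.518, 0.540 and 0.828 FPKM at 1000 nM, a change of -1.71 (SE 0.18). GABPB1 fell from 17.1, 15.2 and 14.6 FPKM to 6.61, 4.76 and 4.48 FPKM (-1.42). TFAM (-0.87), NRF1 (-1.12) and GABPB1 (-0.54) fell on the relative scale as well.

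In the libraries labelled XG1 the median change was nearer 0. At 1000 nM, 14 of the 52 genes fell on the deposited scale and 0 rose, 26.9% against a background of 13.2% of 11810 genes tested (3.69% for a rise). At an unadjusted p under 0.05, 24 of the 52 were lower and 0 higher, against 23.1% and 7.97% of all genes tested. With no filter on low values 7 of the 52 were lower and 4.39% of all genes were called. The median was -0.28 against -0.15 over all genes. The treated libraries lay under all DMSO libraries for 31 of the 52 genes (59.6%), against 30.1% of all genes tested, and above them for NDUFB9 (background 11.5%). On the relative scale 4 genes fell (NDUFB4, UQCRB, COX7B and COX7C; background 10.3%) and 1 rose (NDUFB9; background 9.57%). The deposited count fell with each library of the groups compared left out: it was 7, 9 and 5 without XG1 in DMSO replicates 1, 2 and 3, and 10, 5 and 7 without XG1 at 1000 nM replicates 1, 2 and 3. How many of all genes were called in those fits is not given here, so the drop cannot be read as particular to the 52 genes. Medians by complex were -0.24 for complex I (5 of 28 fell), -0.47 for II (1 of 4), -0.31 for III (3 of 8), -0.33 for IV (4 of 11) and -0.23 for V (5 of 18).

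NDUFB4, an accessory subunit of complex I, had the smallest adjusted p in XG1. Its level was 331, 365 and 435 FPKM in DMSO, 211, 186 and 218 FPKM at 100 nM and 207, 202 and 205 FPKM at 1000 nM. Both doses lay under DMSO and near each other, with a deposited log2 change of -0.87 at each (SE 0.13; adjusted p = 0.0025 at 100 nM and 0.0011 at 1000 nM by limma). COX7C of complex IV was 3156, 3019.6 and 3400.2 FPKM in DMSO, 2239.7, 1863 and 1896 FPKM at 100 nM and 1808, 1965 and 1859 FPKM at 1000 nM (-0.76, SE 0.11, adjusted p = 0.0013 at 1000 nM). UQCRB of complex III followed with 185, 177 and 237 FPKM in DMSO and 116, 105 and 128 FPKM at 1000 nM (-0.77, SE 0.15, adjusted p = 0.0062). These 3 genes passed the test in every fit without 1 library of the groups compared and fell on the relative scale at both doses. They had fallen in AMO1 too, by 1.38, 1.11 and 1.35 on the deposited scale at 1000 nM.

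The other 11 genes that fell in XG1 at 1000 nM were NDUFA6, NDUFA10, NDUFS1, NDUFS5, SDHB, UQCRQ, CYC1, CYCS, COX5A, COX7B and COX8A. CYCS was 47.5, 43.7 and 57.4 FPKM in DMSO, 33.7, 24.0 and 26.6 FPKM at 100 nM and 34.2, 33.1 and 30.7 FPKM at 1000 nM. Both doses lay under DMSO, with deposited log2 changes of -0.80 (SE 0.16, adjusted p = 0.011 by limma) and -0.58 (SE 0.16, adjusted p = 0.032). The second of these missed the threshold in 5 of 6 fits without 1 library, with adjusted p up to 0.13. CYC1 fell at 1000 nM (466, 416 and 405 FPKM in DMSO, 414, 378 and 389 FPKM at 100 nM, 329.8, 301 and 245 FPKM at 1000 nM), by 0.56 (adjusted p = 0.013), and its value at 100 nM was -0.12 (adjusted p = 0.58). NDUFS1 fell by 0.77 (adjusted p = 0.034) from 17.5, 15.7 and 20.4 FPKM to 7.05, 10.9 and 13 FPKM. NDUFV1 (-0.28), UQCRC1 (-0.13), UQCRFS1 (-0.35), COX4I1 (-0.22), COX5B (-0.34) and SDHA (0.07) did not pass the test.

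At 100 nM in XG1, 11 of the 52 genes fell on the deposited scale and 0 rose, 21.2% against a background of 10% (2.48% for a rise). At an unadjusted p under 0.05, 21 of the 52 were lower and 2 higher, against 22.6% and 6.52% of all genes tested. With no filter on low values 5 of the 52 were lower and 2.57% of all genes were called. The treated libraries lay under all DMSO libraries for 25 genes (48.1%, background 24.6%) and above them for NDUFA3 and NDUFA11 (3.85%, background 7.19%). The median was -0.24 against -0.15 over all genes. On the relative scale 4 fell (NDUFB4, UQCRB, CYCS and COX7C; background 7.25%) and 3 rose (NDUFA3, NDUFA11 and NDUFB9; background 7.31%). The count of 11 was 5, 6 and 3 without XG1 in DMSO replicates 1, 2 and 3, and 13, 5 and 5 without XG1 at 100 nM replicates 1, 2 and 3. The share of all genes called in those fits is not given here, so these shifts cannot be read as particular to the 52 genes. The changes of SDHD and NDUFB3 had the widest spread: SDHD was 31.9, 37.1 and 52.8 FPKM in DMSO and 25.6, 4.22 and 14.3 FPKM at 100 nM (-1.66, SE 0.48, adjusted p = 0.044 by limma). NDUFB3 was 199, 169.7 and 205 FPKM in DMSO and 140.4, 27.2 and 65.4 FPKM at 100 nM (-1.58, SE 0.45, adjusted p = 0.044). Replicate 2 was lowest for both, and without it the changes were -1.01 (adjusted p = 0.076) and -0.98 (adjusted p = 0.083) and did not pass the test. At 1000 nM the libraries lay at 17.9 to 34.0 FPKM for SDHD and 84.3 to 163.1 FPKM for NDUFB3. Between the doses, limma called 0 of the 52 genes in either direction (background 0.39%), and at an unadjusted p under 0.05 it found 2 lower and 3 higher, against 5.64% and 4.99% of all genes tested.

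Regulators in XG1 were tested for 10 of the 12 genes. On the deposited scale 2 fell at 100 nM, GABPA and TFB2M (background 10%), and 4 fell at 1000 nM, GABPA, NRF1, TFAM and YY1 (background 13.2%). TFB2M, a mitochondrial transcription factor, was 48.0, 50.1 and 59.0 FPKM in DMSO and 35.03, 16.6 and 18.99 FPKM at 100 nM, without overlap (-1.19, SE 0.25, adjusted p = 0.013 by limma), and 46.3, 42.5 and 30.3 FPKM at 1000 nM. Its call at 100 nM was lost without XG1 in DMSO replicate 3 (adjusted p = 0.059). GABPA, the DNA-binding subunit of GABP, was 15.1, 10.7 and 15.3 FPKM in DMSO, 9.19, 4.60 and 3.96 FPKM at 100 nM and 5.06, 5.32 and 3.97 FPKM at 1000 nM, with deposited log2 changes of -1.15 (SE 0.28, adjusted p = 0.022 by limma) and -1.34 (SE 0.28, adjusted p = 0.0077). NRF1 was 4.03, 4.74 and 5.62 FPKM in DMSO and 2.56, 1.98 and 2.72 FPKM at 1000 nM (-0.76, adjusted p = 0.039), and TFAM was 47.2, 41.7 and 52.2 FPKM against 32.0, 33.2 and 30.9 FPKM (-0.54, adjusted p = 0.04). The calls of NRF1 and TFAM were lost in each of 6 fits without 1 library. PPARGC1A, the coactivator that drives mitochondrial biogenesis, was under 1 FPKM in all 9 XG1 libraries and was 14.04, 16.9 and 12.6 FPKM in AMO1 in DMSO.

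The responses of the lines were compared by an interaction term over all 18 libraries (XG1 minus AMO1). At 1000 nM 26 of the 52 genes differed on the deposited scale, all 26 higher, with 0 lower, against backgrounds of 32.8% and 1.5% of 12792 genes tested. Higher here means that the XG1 change lay above the AMO1 change: in XG1, 21 of the 26 had values under 0, 6 of which passed the test, and 5 had values above 0 that did not (NDUFA3, NDUFA8, NDUFA11, NDUFB9 and COX6B1, between 0.03 and 0.25). The median difference was 0.68, against 0.55 over all genes. The largest differences were those of CYCS (1.32, SE 0.25, adjusted p = 0.0012 by limma) and NDUFA9 (1.23, SE 0.24, adjusted p = 0.0013). NDUFB9, an accessory subunit of complex I, differed by 1.02 (adjusted p = 0.0016). By complex, 14 of 28 genes of complex I differed, 0 of 4 of II, 5 of 8 of III, 6 of 11 of IV and 11 of 18 of complex V. Relative to the median gene 1, CYCS, was higher (0.50, adjusted p = 0.023; background 8.47%). On that scale 5 genes lay lower in XG1 (background 8.22%), namely NDUFA10 (-0.64), NDUFB1 (-0.79), NDUFV1 (-0.45), COX4I1 (-0.40) and COX7A2 (-0.54). The count of 26 was 16 without replicate 2 of either line in DMSO, 17 without XG1 in DMSO replicate 1, 19 without AMO1 at 1000 nM replicate 2 and 38 without AMO1 at 1000 nM replicate 3. With no filter on low values it was 15, and 13.4% of all genes were called in either direction. For the fits without 1 library this share is not given here, so their counts cannot be read as particular to the 52 genes. At 100 nM limma called 0 of the 52 genes on the deposited scale (background 6.23%), with 0 lower and 3 higher at an unadjusted p under 0.05, against 3.97% and 16.1% of all genes tested.

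Across the 52 genes the log2 changes of the lines at 1000 nM had a Pearson r of 0.50 and a Spearman rho of 0.50, and at 100 nM 0.41 and 0.52. These values run over genes that share libraries and are descriptions only.

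In DMSO, without the inhibitor, XG1 and AMO1 differed in 26 of the 52 genes on the deposited scale: 10 were higher in XG1, against a background of 45%, and 16 were lower, against 19.8%. The median was -0.09, against 0.42 over all genes tested. Relative to the median gene 7 were higher (background 38.3%) and 31 lower (background 28%), with a median of -0.40 against 0.17. Complex I, which holds 28 of the 52 genes, held 10 of the 16 lower genes on the deposited scale and 18 of the 31 on the relative one. The XG1 libraries held erythroid markers and little of the plasma cell markers, and the part of this in the differences was not tested.

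SDHD differed most. It was 31.9, 37.1 and 52.8 FPKM in XG1 and 3.39, 3.02 and 6.35 FPKM in AMO1, a deposited log2 difference of 3.01 (SE 0.46, adjusted p = 2.1e-05 by limma). SDHD overlaps TIMM8B on the other strand and a further protein-coding gene, AP002884.3, on the same strand, whose reads counting by strand would not separate, and the sources used here do not say whether reads were counted by strand. COX8A, the small subunit of complex IV, was higher in XG1 (3530.5, 3508 and 3690.0 FPKM against 1498, 1635 and 1764 FPKM; 1.13), as were NDUFA8 (543, 465 and 462 FPKM against 225, 261 and 282 FPKM; 0.94) and UQCRH (5223, 5068 and 5597 FPKM against 2956, 3064 and 3357 FPKM; 0.76). All 4 were also higher on the relative scale, by 2.67, 0.82, 0.62 and 0.45.

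NDUFA10, an accessory subunit of complex I, was lower in XG1, with a difference of -1.71 (23.4, 26.5 and 26.5 FPKM against 79.1, 94.7 and 83.8 FPKM; SE 0.15, adjusted p = 4e-08 by limma). NDUFB7 was lower, with -1.35 (822, 742 and 869.9 FPKM against 2049, 2120.1 and 2032 FPKM). CYCS was lower, with -1.28 (47.5, 43.7 and 57.4 FPKM against 111, 132 and 120.0 FPKM; SE 0.18, adjusted p = 8.6e-06). The libraries of the lines did not overlap for any of these 3 genes. At 1000 nM the CYCS levels of the lines met: AMO1 lay at 36.0, 22.7 and 38.3 FPKM and XG1 at 34.2, 33.1 and 30.7 FPKM. CYC1 (0.09), COX5B (0.11), NDUFV1 (0.06) and UQCRFS1 (0.04) did not pass the test between the lines in DMSO.

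**Figure D5:**
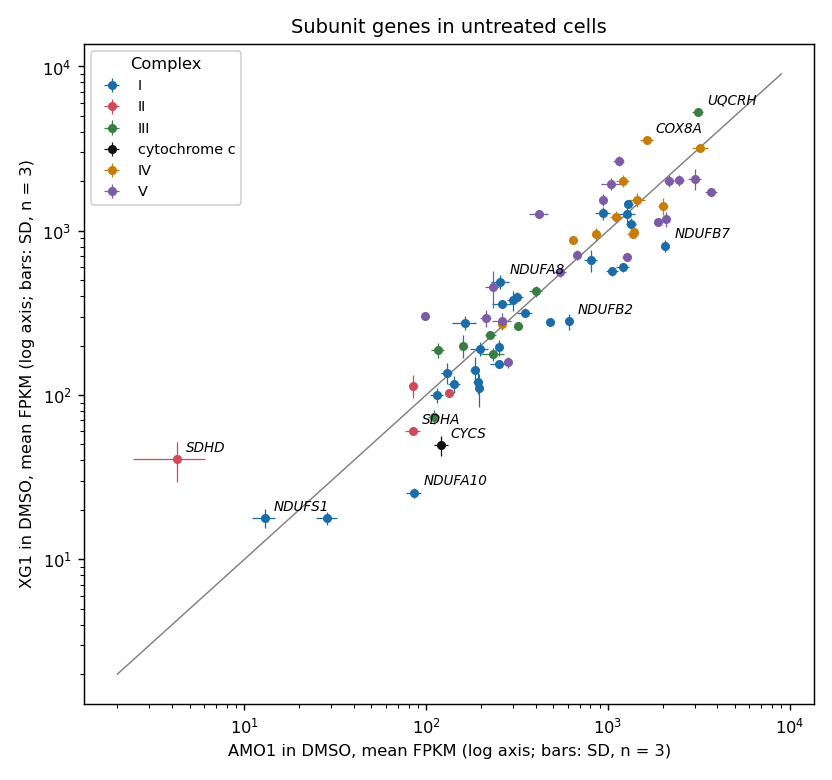
Mean FPKM of each subunit gene in DMSO in AMO1 (x axis) and XG1 (y axis), both on log axes, with SD over 3 libraries and colours for complexes (the 52 genes and 18 of complex V). The grey line marks equal levels. SDHD lies far above it, at 40.6 against 4.26 FPKM, and NDUFA10 (25.5 against 85.9 FPKM) and CYCS (49.6 against 121 FPKM) lie below it.

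Counting limits these values for some genes. In GENCODE 29, 22 of the 52 genes overlap another protein-coding gene, 10 of them on the same strand and 17 on the other, and 32 have at least 1 pseudogene named for them. NDUFB3 overlaps FAM126B and NDUFA3 overlaps TFPT on the other strand. Values of such genes are uncertain where the authors' counting could split reads between copies or neighbours.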

How the data were processed

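FPKM per gene were deposited for each of 18 QuantSeq 3′ libraries, and per the submitters' processing notes the authors used HISAT2, Cuffnorm and the genome build hg19, with versions not given in the sources used here. Each library lists 26341 entries, 26249 genes and 92 ERCC spike-ins, RNAs added in known amount. The spike-in sums hardly vary, so the values appear to be rescaled to them, which is read from the values and not stated. Read counts, and so depth, are not given in the sources used here.

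Levels were set to log2(FPKM + 1), and genes reaching 1 FPKM in 3 or more libraries of a fit were tested with limma 3.58.1 in R 4.3.3 (eBayes with trend, two-sided, Benjamini-Hochberg over all genes tested, threshold 0.05). Dose comparisons used the 9 libraries of a line, and line comparisons all 18. The procedure was run on simulated data in which a small set of genes changed and noise was independent between genes. Shifts of whole libraries or of most genes were not simulated, so that run cannot say how the calls behave under them. The relative scale divides each library by its median-ratio size factor. Named genes are, in each comparison, the highest and lowest log2 change in each complex, the 3 smallest adjusted p, members in the rarer direction where 5 or fewer, 10 subunits named throughout (NDUFS1, NDUFV1, SDHA, SDHB, UQCRC1, UQCRFS1, CYC1, CYCS, COX4I1 and COX5B), and up to 3 called regulators; other genes were named after their values were seen. The members and lists were chosen with earlier results of these data known. Alternatives were no filter, a pseudocount of 0.1 FPKM, only the groups compared, the relative scale, a replicate block and each library of the groups compared left out. In the fits without 1 library, the other groups always stayed whole.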

Additional observations from a re-analysis of the deposited data

Results flagged for a closer look

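The response to 1000 nM of YKL-5-124 differed between the lines, by the interaction term of limma at an adjusted p under 0.05, for 26 of the 52 genes, all higher in the libraries labelled XG1, where 32.8% of all genes tested were higher. The count was 15 with no filter on low values, where 13.4% of all genes were called in either direction, and 16 to 38 with 1 library left out. For the latter fits the share of all genes is not given here, so the range cannot be read as particular to the 52 genes. Values are XG1 minus AMO1 on the deposited log2 scale. In XG1 itself 21 of the 26 genes had changes under 0 and 5 had changes above 0 that did not pass the test.

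In complex I the differences were 0.70 for NDUFA3, 0.80 for NDUFA6, 0.94 for NDUFA8, 1.23 for NDUFA9, 1.03 for NDUFA11 and 1.21 for NDUFA12. Among the NDUFB genes they were 1.13 for NDUFB6, 1.05 for NDUFB7, 0.86 for NDUFB8, 1.02 for NDUFB9, 0.85 for NDUFB10 and 0.78 for NDUFB11. NDUFS5 differed by 0.80 and NDUFS8 by 0.79.

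In complex III the differences were 0.83 for UQCRC1, 0.95 for UQCRC2, 0.85 for UQCRH, 0.89 for UQCR10 and 0.95 for CYC1. Cytochrome c (CYCS) differed by 1.32. In complex IV they were 0.71 for NDUFA4, 0.72 for COX5A, 0.66 for COX5B, 0.73 for COX6A1, 0.98 for COX6B1 and 0.74 for COX7B. Over all genes tested the median difference was 0.55. On the relative scale CYCS was the 1 of these 26 genes that differed (0.50).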

How the results depend on the processing

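Counts of the 52 genes called were the same with a pseudocount of 0.1 FPKM in all 9 comparisons. On the relative scale, AMO1 at 1000 nM against DMSO held 19 called genes, 1000 nM against 100 nM held 1, XG1 held 5 at 1000 nM and 7 at 100 nM, and the difference in response held 6 at 1000 nM and 2 at 100 nM. In the same order, 48.2%, 5.97%, 19.8%, 14.6%, 16.7% and 9.6% of all genes were called. With no filter on low values the counts were 3 for AMO1 at 100 nM, 1 for 1000 nM against 100 nM, 7 and 5 for XG1 at 1000 nM and 100 nM, and 15 for the difference at 1000 nM. The shares of all genes called were 7.41%, 1.98%, 4.39%, 2.57% and 13.4%. With only the groups compared in the fit, they were 34 for AMO1 at 100 nM, 2 for 1000 nM against 100 nM and 3 for the difference at 100 nM, where 49.1%, 13.8% and 9.69% of all genes were called. The cause of these shifts was not tested. Libraries of the same replicate number were treated as unpaired. Their deviations correlated from -0.12 to 0.086 in AMO1 and from -0.053 to 0.149 in XG1, where 2 of 9 pairs lay over 0.1. Differently numbered libraries were not set beside them, so pairing was not tested. A fit with the replicate block called 47, 5 and 7 genes in AMO1 (1000 nM, 100 nM and between doses) and 10, 10 and 0 in XG1. That fit called 24 and 0 in the differences and 27 between the lines in DMSO. Leaving out 1 library of the groups compared gave 42 to 50 genes in AMO1 at 1000 nM, 1 to 4 at 100 nM, 0 to 40 between the doses, 5 to 10 and 3 to 13 in XG1 at 1000 nM and 100 nM, 0 between the XG1 doses, 16 to 38 and 0 to 1 in the differences at 1000 nM and 100 nM, and 21 to 24 between the lines. The share of all genes called in the fits without 1 library is not given here, so these ranges cannot be read as particular to the 52 genes. Of 1632 values of single genes under an alternative, 1343 kept direction and side of the threshold, 183 lost and 32 gained the call, and 74 changed sign.

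Setting values against the median gene moves those of well expressed genes by about the same amount within a comparison. In AMO1 at 1000 nM and in the difference at 1000 nM that amount was larger than the deposited median of all genes. That median includes genes at a few FPKM, whose changes are understated by the added 1 FPKM. Of the 52 genes the sign differed between the scales for 26 in AMO1 at 1000 nM, 25 at 100 nM and 15 between the doses, for 10 and 11 in XG1 at 1000 nM and 100 nM, for 36 in the difference at 1000 nM and for 9 between the lines in DMSO. The values given here are those of the genes named by rule, complex V included. In AMO1 at 1000 nM they were ATPIF1 0.51, COX4I1 0.32, COX7A2 0.57, NDUFB1 0.79, NDUFS1 0.025, NDUFV1 0.31, SDHA 0.54, UQCRC1 0.011 and UQCRFS1 0.064. At 100 nM they were ATPIF1 0.31, COX4I1 0.25, COX5B 0.19, NDUFS1 0.12, NDUFV1 0.32, SDHA 0.26, UQCRC1 0.065 and UQCRFS1 0.10. Between the doses they were ATPIF1 0.20, COX4I1 0.065, COX6C 0.14, NDUFB3 0.23, SDHA 0.27, SDHB 0.077 and SDHD 0.13. In XG1 they were UQCRC1 0.057 at 1000 nM, and COX5B 0.10 and CYC1 0.075 at 100 nM. In the difference at 1000 nM they were ATP5A1 -0.62, COX4I1 -0.40, COX5B -0.18, COX7A2 -0.54, NDUFB1 -0.79, NDUFS1 -0.65, NDUFV1 -0.45, SDHA -0.33, SDHB -0.061, SDHD -0.44, UQCRFS1 -0.27 and UQCRQ -0.31. Between the lines in DMSO they were COX5B -0.20, CYC1 -0.22, NDUFV1 -0.25 and UQCRFS1 -0.27. Signs also changed with 1 library left out, over these ranges: in AMO1, NDUFB1 at 1000 nM from -0.36 to 0.058, COX7A2 at 100 nM from -0.058 to 0.090 and NDUFB3 between doses from -0.52 to 0.049. In XG1, COX6B1 ran from -0.079 to 0.079 at 1000 nM and from -0.041 to 0.13 at 100 nM, where NDUFV1 ran from -0.11 to 0.20, SDHA from -0.014 to 0.24 and UQCRC1 from -0.11 to 0.20. In the difference at 1000 nM, ATP5A1 ran from -0.13 to 0.41, NDUFB1 from -0.19 to 0.22, NDUFS1 from -0.15 to 0.31 and SDHD from -0.14 to 0.44. Between the lines, NDUFV1 ran from -0.016 to 0.19 and UQCRFS1 from -0.017 to 0.074. The FPKM give no read depth, so counting error at low levels, such as SDHD in AMO1, cannot be set apart from the spread of 3 libraries.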
